A study of Caenorhabditis elegans with 6 samples.

Results

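The dod genes of Caenorhabditis elegans, named for acting downstream of DAF-16, were compared between sterile adults with and without a mutation in the insulin/IGF-1 receptor. The members were 9 of the 20422 genes of the authors' deposited table, chosen by name: dod-3, dod-6, dod-17, dod-19, dod-20, dod-21, dod-22, dod-23 and dod-24. The table holds 1 more gene with a dod name, dod-18, which was not a member and whose values are given after the others. The double mutant, written daf-2; mes-1 below, was strain SS1224 with 3 samples and carries daf-2(e1370) on chromosome III beside mes-1(bn84ts) on the X chromosome. The control, written mes-1, was strain SS0415 with 3 samples and carries mes-1(bn84ts) alone. Both genotypes carry the mes-1 allele and the worms were picked as adults without visible embryos, which the labels describe as lacking a germline. Embryos were laid at 24 °C, kept at 15 °C from day 1 to avoid dauer larvae, and brought back to 24 °C on day 5. One day later, on day 6, 100 whole adults were taken for each RNA sample. Nothing in the labels says whether the samples of a genotype were separate cultures. A p-value here therefore covers the spread among 3 samples of each genotype, and that spread may be technical.

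The insulin/IGF-1 receptor DAF-2 signals through a kinase cascade that keeps the FOXO transcription factor DAF-16 out of the nucleus. When the receptor is weakened, DAF-16 enters the nucleus, stress resistance genes become more active, and many genes of growth, yolk and defence become less active. Mutants of daf-2 are known for their long life. The dod genes were named from earlier array experiments on daf-2 and daf-16 worms, in which dod-3 and dod-6 belonged to the class that is raised in daf-2 mutants and the other members to the class that is lowered. Their directions here are therefore not independent of the names.

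The authors' deposited table has an adjusted p for 8 of the 9 members, and DESeq2 called all of these 8 at an adjusted p under 0.05: dod-3 and dod-6 were higher in daf-2; mes-1, and dod-17, dod-19, dod-21, dod-22, dod-23 and dod-24 were lower. The table calls 10.3% of the 9820 genes with an adjusted p, 3.92% higher and 6.35% lower. The remaining member, dod-20, had too few reads to be tested. The median log2 fold change of the 8 genes was -1.89, against -0.03 for all genes with an adjusted p, and it was -1.47 when dod-20 was added. Both called rises lay among genes with many reads, while the falls were spread from the least to the most abundant members.

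**Figure D1:**
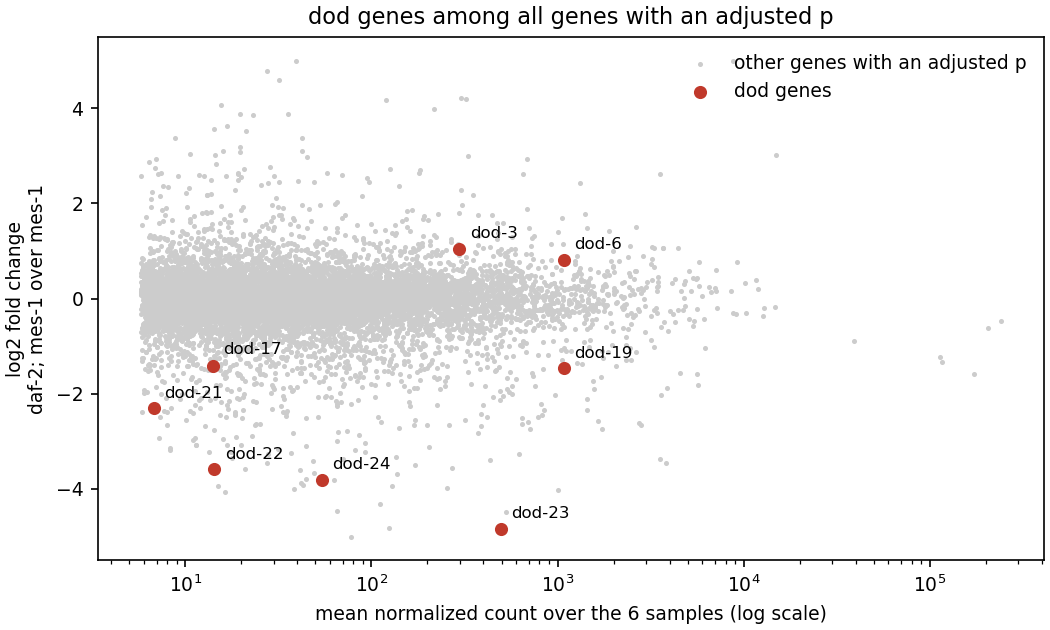
Deposited log2 fold change (daf-2; mes-1 over mes-1, vertical axis) against the mean normalized count over the 6 samples (horizontal axis, log scale) for the genes with an adjusted p (grey) and the 8 dod genes among them (red). The dod genes run from dod-21 at a mean of 6.78 to dod-6 and dod-19 at 1086.

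The RNA level of single libraries is known for only some members. The deposited table gives 1 mean normalized count over all 6 samples, printed with up to 10 significant digits, and 1 RPKM value (reads scaled to gene length and library size) per genotype. A mean is a sum of whole reads, each worth a fixed amount in its library, so reads of each library could be recovered from the mean for genes with few reads. All 3093 distinct means under 4.5 were met by exactly 1 combination of whole reads. The recovered size factors, by which DESeq2 divides the reads of a library, ran from 0.584 to 1.38 in daf-2; mes-1 and from 0.826 to 1.79 in mes-1, so the deepest library lay 3.06 times above the shallowest. Libraries are called D, E and F in daf-2; mes-1 and A, B and C in mes-1, each from the deepest to the shallowest, because the recovered reads carry no replicate number. The deposited table holds no standard error. An upper limit for it was derived from each adjusted p and is given as "SE at most".

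The 2 members of the raised class were abundant in both genotypes and were moderately higher in daf-2; mes-1. For dod-3 (WBGene00016052, chromosome V, 2730508 to 2731095, minus strand), the authors' deposited table gave an RPKM of 434 in daf-2; mes-1 and 197 in mes-1. Its log2 fold change in the authors' deposited table was 1.05 (SE at most 0.35, adjusted p = 0.0313, DESeq2), which is a 2.07-fold rise. For dod-6 (WBGene00011869, chromosome III, 10197625 to 10198261, plus strand), the authors' deposited table gave an RPKM of 1294 in daf-2; mes-1 and 719 in mes-1. It rose 1.76-fold, or by 0.81 in log2 fold change as the authors' deposited table gives it (SE at most 0.24, adjusted p = 0.0117, DESeq2). The intervals of both genes, 0.36 to 1.74 for dod-3 and 0.33 to 1.29 for dod-6 on the log2 scale (95%), overlap, so an order between them cannot be given. Both encode short proteins, of 106 residues for dod-3 and 60 for dod-6 in the Ensembl annotation. The means correspond to 1780 normalized reads over the 6 libraries for dod-3 and 6515 for dod-6, too many to recover the reads of each library.

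Among all genes called higher, these rises were of small size. Ranked by log2 fold change, dod-3 was at place 252 and dod-6 at place 338 of 385. Neither call holds at an adjusted p under 0.01.

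Among the members, the largest change was the fall of dod-23. This gene (WBGene00009898, chromosome II, 8398103 to 8399109, minus strand, 168 residues) had an RPKM of 18.9 in daf-2; mes-1 and 629 in mes-1 in the authors' deposited table. It fell 28.5-fold, a log2 fold change of -4.83 in the authors' deposited table (SE at most 0.48) and an adjusted p of 1e-20 (DESeq2), the lower limit of that column. Of the 624 genes called lower, it had the second largest fall. By RPKM it stood next to dod-6 among the most abundant members of the control, while the double mutant had more RNA of dod-6, dod-3 and dod-19.

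A pair of members lie close together on chromosome V and differ widely in level. The table gives dod-19 (WBGene00022644) at 411780 to 414761 on the minus strand and dod-20 (WBGene00015259) at 422499 to 424167 on the plus strand, a stretch of 12.4 kilobases with 4 genes. In the authors' deposited table the RPKM of dod-19 was 165 in daf-2; mes-1 and 470 in mes-1. It fell 2.77-fold, with a log2 fold change of -1.47 in the authors' deposited table (SE at most 0.22, adjusted p = 9.61e-10, DESeq2).

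For dod-20 the recovered reads were 0 in each of the 3 daf-2; mes-1 libraries and 1 in each of the 3 mes-1 libraries. Its RPKM in the authors' deposited table is listed at 0 in daf-2; mes-1 and was 0.284 in mes-1. With 3 reads in all, both genotypes are at or under the floor of 3 reads per genotype, and no fold is given.

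The remaining 4 members, dod-21, dod-24, dod-22 and dod-17, stand within 41.6 kilobases of chromosome IV, in a stretch of 13 genes. Of these, dod-17, dod-22 and dod-24 are known in C. elegans as genes of the response to bacterial infection that encode proteins with a CUB-like domain. All 4 fell in daf-2; mes-1. The table gives dod-21 (WBGene00007873) at 12936714 to 12937924 and dod-24 (WBGene00007875) at 12940118 to 12941344, on opposite strands. It gives dod-22 (WBGene00010125) at 12965363 to 12967352 and dod-17 (WBGene00010745) at 12976269 to 12978320, both on the plus strand. In the Ensembl annotation dod-21 and dod-24 have 3 exons and 361 residues each, while dod-22 and dod-17 have 8 exons and 342 and 341 residues. Close copies may share reads, and their sequences were not analysed here.

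The most abundant of these was dod-24, with an RPKM of 1.87 in daf-2; mes-1 and 38.0 in mes-1 in the authors' deposited table. It fell 14.0-fold, with a log2 fold change of -3.81 in the authors' deposited table (SE at most 0.45, adjusted p = 6.28e-15, DESeq2). The fall ranked 16 among the 624. Its mean stands for 324 normalized reads over the 6 libraries, too many to recover the reads of each.

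For dod-22 no read was recovered in any daf-2; mes-1 library. Of 6 combinations of reads that meet its mean, this was the 1 that matched the RPKM ratio, so the absence of reads is not independent of the RPKM listed at 0. The mes-1 libraries A, B and C held 32, 51 and 7 reads, or normalized counts of 17.9, 59.4 and 8.47. The groups do not overlap, but the mes-1 libraries differed widely, with a mean of 0 in daf-2; mes-1 and of 28.6 ± 27.1 in mes-1 (SD, n = 3 each, exact permutation test, two-sided, p = 0.1, the smallest that 3 against 3 allows). The lack of overlap comes from the same reads as the call, and the share of all genes without overlap was not counted. Library B held 69.2% of the normalized count of mes-1. Against a floor of 3 reads over the daf-2; mes-1 libraries, dod-22 was at least 26.2-fold lower, and at least 15.1-fold lower without library B. The log2 fold change of -3.58 in the authors' deposited table (SE at most 0.61, adjusted p = 1.85e-07, DESeq2) is a fitted value for a gene at 0 in one genotype and gives no bound. The RPKM in the authors' deposited table is listed at 0 in daf-2; mes-1 and was 12.1 in mes-1.

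For dod-21, whose mean only 1 combination meets, the recovered reads were 2, 0 and 0 in the daf-2; mes-1 libraries D, E and F and 49, 6 and 4 in the mes-1 libraries A, B and C. The normalized counts were 1.45, 0 and 0 in daf-2; mes-1, against 27.4, 6.99 and 4.84 in mes-1. Every mes-1 library lies above every daf-2; mes-1 library, but the call of dod-21 rests on the same reads. Library A stands far above the other mes-1 libraries. Means were 0.482 ± 0.834 in daf-2; mes-1 and 13.1 ± 12.5 in mes-1 (SD, n = 3 each, exact permutation test, two-sided, p = 0.1). Since daf-2; mes-1 had only 2 reads, the size of the fall is poorly known. Over all reads of a genotype the log2 ratio was -4.69 (95% exact interval -7.77 to -2.77, counting error only), and without library A it was -3.17 (-6.40 to -0.94). The log2 ratio of the means was -4.76, and -3.62 without library A. In the authors' deposited table the log2 fold change was -2.31 (SE at most 0.62, adjusted p = 0.00334, DESeq2), nearer to 0 than the ratio of means, and the RPKM was 0.188 in daf-2; mes-1 and 5.11 in mes-1.

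For dod-17 the recovered reads were 5, 5 and 7 in the daf-2; mes-1 libraries D, E and F and 43, 23 and 11 in the mes-1 libraries A, B and C. The normalized counts were 3.61, 4.68 and 11.98 in daf-2; mes-1, against 24.1, 26.8 and 13.3 in mes-1. These reads were the 1 of 4 combinations that matched the RPKM ratio, and are not independent of it. The groups come close to each other, since library F nearly reaches library C. Means were 6.76 ± 4.56 in daf-2; mes-1 and 21.4 ± 7.12 in mes-1 (SD, n = 3 each, exact permutation test, two-sided, p = 0.1). The log2 ratio of the means was -1.66, and -2.37 without library F. The authors' deposited table gave a log2 fold change of -1.43 (SE at most 0.51) with an adjusted p of 0.0493 (DESeq2), just under the threshold, and an RPKM of 2.39 in daf-2; mes-1 and 7.91 in mes-1.

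**Figure D2:**
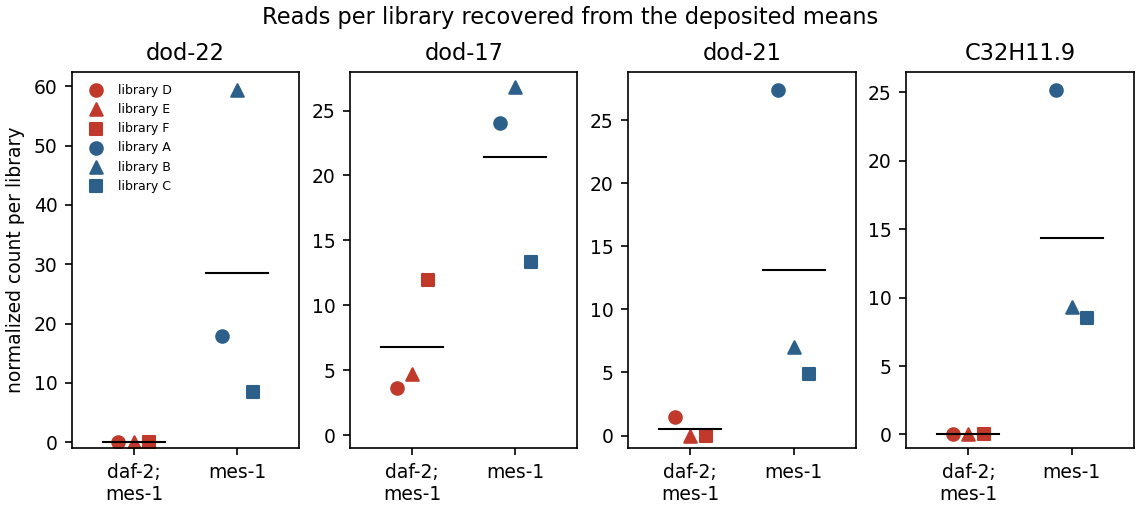
Normalized counts per library (vertical axis, a separate scale in each panel) recovered from the deposited means, for dod-22, dod-17, dod-21 and the neighbouring gene C32H11.9, in 3 daf-2; mes-1 libraries (red) and 3 mes-1 libraries (blue). Bars mark the means. The groups do not overlap in any panel, but every gene drawn was called lower. The share of all genes without overlap was not counted, and F49E12.10, which was not called, also had none. The highest mes-1 library is B for dod-22 and dod-17 and A for dod-21 and C32H11.9.

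Of the members with few reads, 3 had an adjusted p and were called lower. Of 2174 genes with an adjusted p and a mean normalized count under 15, 55 (2.53%) were called lower, and dod-17, dod-21 and dod-22 were among these 55. The lowest mean with an adjusted p was 5.75, close to the 6.78 of dod-21. The highest mes-1 library was not the same for all 3 genes: it was A for dod-21 and B for dod-22 and dod-17.

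By RPKM in the authors' deposited table, the order of the members in daf-2; mes-1 was dod-6, dod-3, dod-19, dod-23, dod-17, dod-24 and dod-21, with dod-22 and dod-20 listed at 0. In mes-1 it was dod-6, dod-23, dod-19, dod-3, dod-24, dod-22, dod-17, dod-21 and dod-20. RPKM has no error in the table, so neighbours in these orders cannot be told apart. By deposited log2 fold change, the falls ran from dod-23 over dod-24, dod-22, dod-21 and dod-19 to dod-17. The 95% interval of dod-23, -5.78 to -3.88, overlaps those of dod-24 (-4.69 to -2.92) and dod-22 (-4.77 to -2.40). It lies apart from those of dod-21 (-3.53 to -1.09), dod-17 (-2.42 to -0.43) and dod-19 (-1.89 to -1.04). The adjusted p of dod-23 is at the limit of its column, so its interval may be too wide and the overlaps do not show like falls. The interval of dod-22 lies around a fitted value that gives no bound. The log2 RPKM ratios were -5.06 for dod-23, -4.34 for dod-24, -1.73 for dod-17 and -1.51 for dod-19. That of dod-21 was -4.76, but it rests on 2 reads in daf-2; mes-1 and the counting interval above takes in the values of dod-23 and dod-24, so dod-21 has no place in this order.

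**Figure D3:**
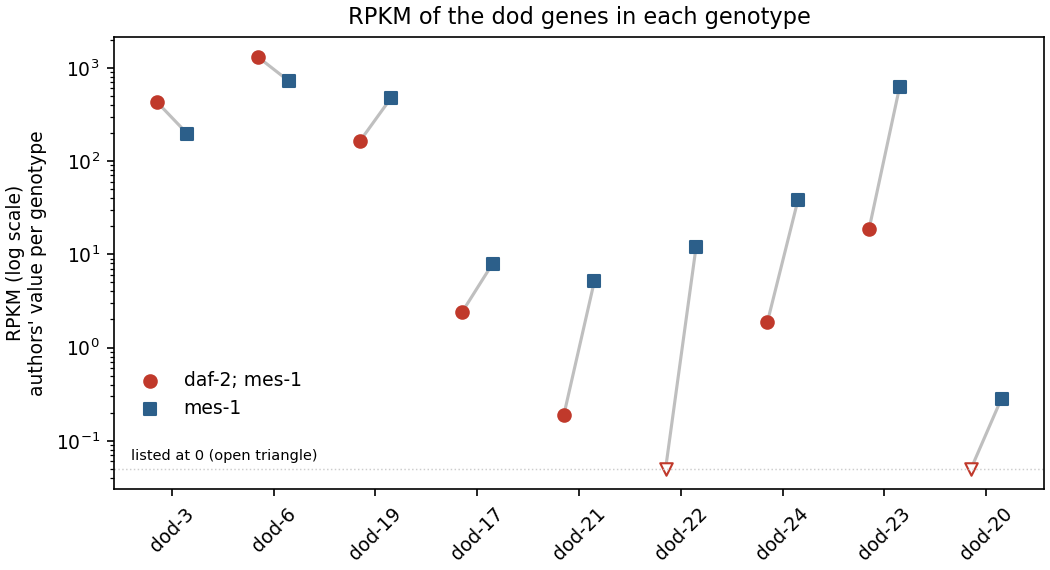
RPKM (vertical axis, log scale) of each dod gene in daf-2; mes-1 (red circles) and mes-1 (blue squares), 1 authors' value per genotype with no error. Open triangles mark values listed at 0. The lines of dod-3 and dod-6 run down to mes-1, while those of the other members run up.

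**Figure D4:**
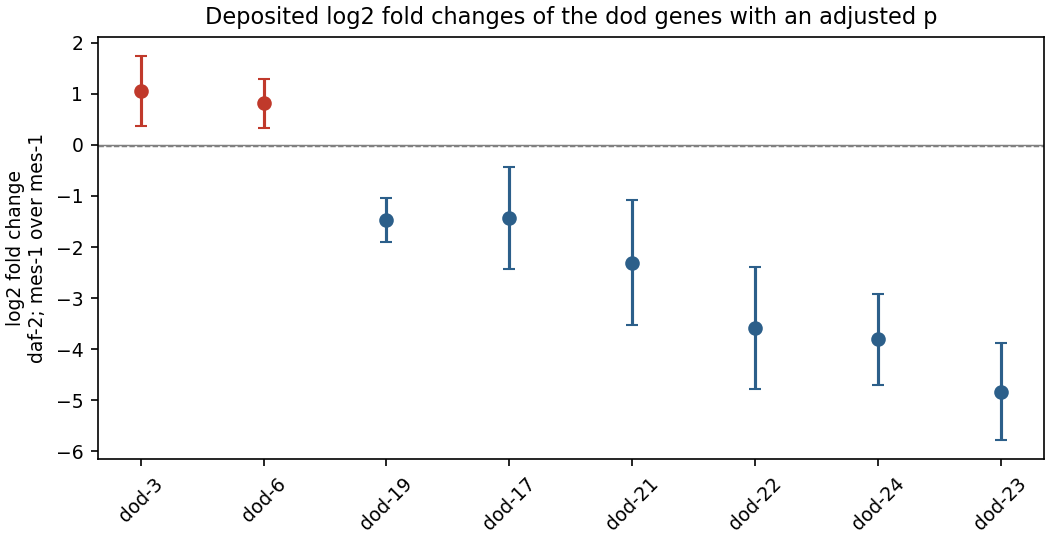
Deposited log2 fold change (daf-2; mes-1 over mes-1) of the 8 members with an adjusted p, red where called higher and blue where called lower. Bars are 95% intervals from the upper limit of the standard error, and the dashed line is the median of all genes with an adjusted p. The values run from 1.05 for dod-3 to -4.83 for dod-23. No interval reaches 0, which only repeats the calls, since each interval was derived from the adjusted p.

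Genes beside the members also fell in part. Of 39 other genes that start within 10000 bases of a member, 12 were tested in the authors' deposited table. Of these, 6 were called lower and none higher by DESeq2, against the 6.35% and 3.92% of all genes. At an unadjusted p under 0.05, 8 were lower and 1 higher, against 999 lower and 764 higher of all 9820 genes. Of the untested neighbours, 12 had a mean of 0 and 15 had too few reads for an adjusted p. No gene span overlapped a member in the table or in the Ensembl annotation (the libraries do not mark strand).

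On chromosome IV, C32H11.9, F55G11.4 and K10D11.2 were called lower, and F55G11.8 and K10D11.3 were not. The start of C32H11.9 faces that of dod-21, with 466 bases between the genes. It had no recovered read in daf-2; mes-1 but normalized counts of 25.2, 9.32 and 8.47 in the mes-1 libraries A, B and C, the same order of libraries as dod-21. Its log2 fold change in the authors' deposited table was -2.93 (adjusted p = 7.13e-05, DESeq2). The authors' deposited table gave F55G11.4, 695 bases before dod-17, an RPKM of 21.8 in daf-2; mes-1 and 115.4 in mes-1 (log2 fold change -2.26, adjusted p = 2.53e-10, DESeq2). For K10D11.2, 672 bases after dod-17, it gave -1.75 (adjusted p = 0.0186), with recovered normalized counts of 7.95, 1.87 and 0 in daf-2; mes-1 and 25.2, 17.5 and 15.7 in mes-1. Of 18 genes on chromosome IV in these windows, members included, 17 have a coding structure in the Ensembl annotation and 1, C32H11.7, is a pseudogene there. Of the 17, 9 have 8 exons and 338 to 342 residues, with dod-22 and dod-17 counted among the 9. Of these 9, the authors' deposited table tests 5 and calls 4 lower: the members dod-17 and dod-22 and the neighbours F55G11.4 and K10D11.2.

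Between dod-19 and dod-20, the gene ZK6.11 fell more than dod-19 did. The authors' deposited table gave it an RPKM of 33.5 in daf-2; mes-1 and 603 in mes-1, with a log2 fold change from DESeq2 of -4.02 and an adjusted p of 1e-20. Y39D8A.1, which follows it, was also called lower, at -1.27 (adjusted p = 0.0471). B0554.5, beyond dod-20, was not called, at -0.03 in the authors' deposited table, and its recovered normalized counts were 5.78, 8.42 and 6.85 in daf-2; mes-1 and 8.40, 9.32 and 3.63 in mes-1. Next to dod-23, F49E12.1 fell by 1.19 (log2) with an adjusted p of 0.00107 from DESeq2 in the authors' deposited table. On the other side of dod-23, the authors' deposited table gave F49E12.10 a log2 fold change of 1.23, which was not called (adjusted p = 0.185, DESeq2). Its recovered normalized counts were 14.5, 15.0 and 6.85 in daf-2; mes-1 and 3.36, 3.49 and 4.84 in mes-1, without overlap (exact permutation test, two-sided, p = 0.1). Next to dod-6, T20G5.8, which also has 2 exons and 60 residues, was at -0.17 (adjusted p = 0.937). None of the 8 genes near dod-3 had an adjusted p, and 5 had a mean of 0.

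**Figure D5:**
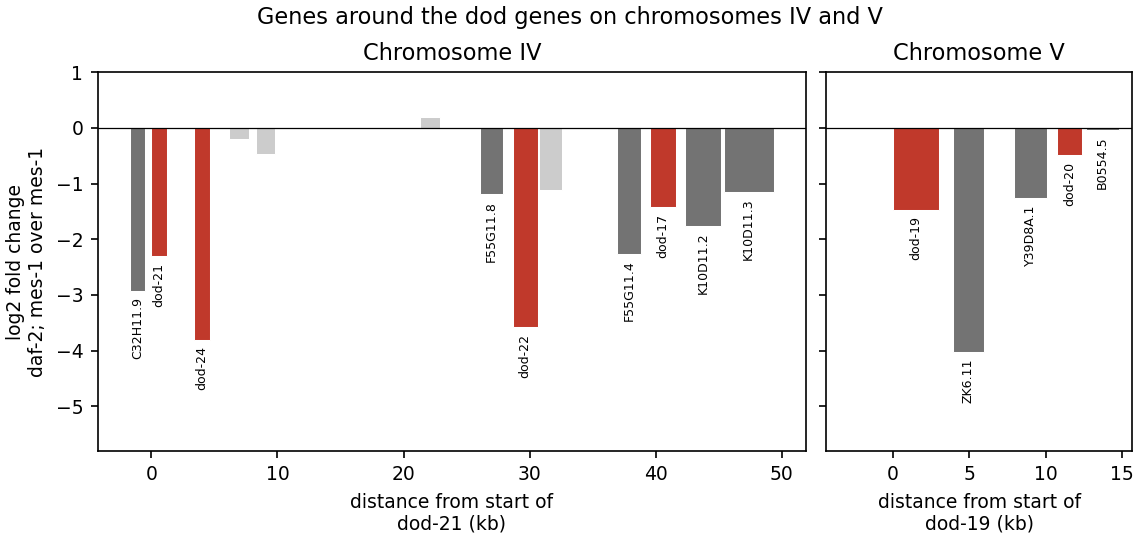
Deposited log2 fold change (daf-2; mes-1 over mes-1, vertical axis) of the genes around dod-21, dod-24, dod-22 and dod-17 on chromosome IV and around dod-19 and dod-20 on chromosome V (dod-3, also on V, lies elsewhere and is not drawn), placed over their spans against the distance from the start of dod-21 or dod-19 (kilobases). Red bars are dod genes, dark grey bars other genes with an adjusted p and light grey bars genes without one, and every red and dark grey bar points down, from -0.03 for B0554.5 to -4.02 for ZK6.11.

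The genes nearest to a member in their 2 RPKM values, measured as the distance on the log2(RPKM + 1) scale over the 2 genotypes, were taken from all genes with an adjusted p. Over 2 genotypes this shows only a like level and a like change. For dod-24 they were R09E12.9 (distance 0.083) and ins-7 (0.139), an insulin-like peptide gene with an RPKM of 1.85 in daf-2; mes-1 and 34.4 in mes-1 in the authors' deposited table. For dod-23 no gene lay as close, and the nearest was ZK6.11 (0.798), the gene next to dod-19. For dod-19 the nearest was clec-41 (0.158), a C-type lectin gene, for dod-3 ttr-5 (0.067), a transthyretin-related gene, and for dod-6 acbp-1 (0.15), which encodes an acyl-CoA-binding protein. For dod-22, dod-21 and dod-17 they were C40H1.7 (0.21), F22E5.1 (0.065) and C03A7.2 (0.069).

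Other genes of the pathway were taken from lists chosen with earlier results of these data known. Both alleles are point mutations, for which RNA levels are no check of the labels. Among 21 insulin signalling genes tested in the authors' deposited table, 2 were called higher and 1 lower by DESeq2. Over all genes 3.92% were called higher and 6.35% lower, so counts this small are not read as a result about the list. The kinase genes pdk-1 (1.63) and akt-1 (1.26) were higher in log2 fold change and sgk-1 (-1.46) was lower. The receptor gene daf-2 was at 0.35 and daf-16 at 0.20, both not called.

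Of 22 DAF-16 activated genes, the authors' deposited table calls 10 higher and 1 lower (DESeq2), against 3.92% and 6.35% of all genes. The median of the activated genes was 0.69. The largest rises were those of the superoxide dismutase gene sod-3 (2.99) and the small heat shock protein gene hsp-12.3 (2.73), and the fall was in the catalase gene ctl-1 (-0.70). The rises of dod-3 and dod-6 lie above this median in log2 fold change. All 6 DAF-16 repressed genes other than the members that were tested in the authors' deposited table were called lower by DESeq2. Over all genes this share was 6.35%. The median of the repressed genes was -2.03. Their falls were led by the oligopeptide transporter gene pept-1 (-3.93) and ins-7 (-2.95). Of the members only dod-23 had a lower deposited value than pept-1. The deposited value of dod-22 gives no bound and dod-21 rests on 2 reads, so neither can be placed against pept-1. Of 4 dao genes, named for being overexpressed in dauers or ageing adults, dao-6 (3.57) and dao-3 (1.58) were called higher in the authors' deposited table, against 3.92% of all genes. The gene dao-3 is also a member of the activated list.

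Since dod-17, dod-22 and dod-24 are known as infection response genes, other effectors of that response were set beside them. The authors' deposited table calls 7 of 21 lower and none higher (DESeq2), with a median of -0.43. At an unadjusted p under 0.05, 9 were lower and 0 higher, against 999 lower and 764 higher of all 9820 genes. The largest falls were in F35E12.5 (irg-5 by its present name; -2.09) and the C-type lectin gene clec-66 (-1.99). The lysozyme genes lys-2 and lys-7 were not called, at -0.01 and 0.00. The deposited values of dod-23 (-4.83) and dod-24 (-3.81) lay below that of F35E12.5, the lowest of this list. The interval of dod-23 (-5.78 to -3.88) lies apart from that of F35E12.5 (-3.21 to -0.96), while that of dod-24 (-4.69 to -2.92) overlaps it. The deposited value of dod-22 gives no bound and dod-21 rests on 2 reads in daf-2; mes-1. These fitted values therefore place neither dod-22 nor dod-21 against this list.

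Markers of the intestine moved in the same direction as the lowered members. Of 18 intestine markers, 10 were called lower and none higher in the authors' deposited table (DESeq2), with a median of -0.92. At an unadjusted p under 0.05, 11 were lower and 0 higher, against 999 lower and 764 higher of all 9820 genes. The summed RPKM of the intestine markers was 3954 in daf-2; mes-1 and 9545 in mes-1. No marker was at 0 in both genotypes. The intestinal GATA factor gene elt-2 was at 0.06 and the gut esterase gene ges-1 at 0.37 in the authors' deposited table, both not called. The part of these markers in the fall of the members was not tested, and in RNA of whole worms fewer cells of a type and less RNA per cell cannot be told apart. Of the other markers, 1 of 7 for hypodermis, 1 of 7 for body muscle and 1 of 8 for neurons was called higher and none lower in the authors' deposited table (DESeq2). Over all genes 3.92% were called higher, and 1 call in a list this short is not read as a result. Germline markers were also lower by RPKM. Of 18 in the authors' deposited table, 16 had a lower and 2 a higher RPKM in daf-2; mes-1, with a median of 1.07 in daf-2; mes-1 and 3.87 in mes-1. The summed RPKM was 96.4 in daf-2; mes-1 and 148 in mes-1, most of it from cgh-1, at 68.6 in daf-2; mes-1 and 77.1 in mes-1. The widest gap in RPKM was that of pos-1, an RNA-binding protein gene, at 1.53 in daf-2; mes-1 and 14.5 in mes-1. Its log2 fold change in the authors' deposited table was only -0.58 (adjusted p = 0.729, DESeq2). The authors' deposited table has an adjusted p for 7 of the 18, and DESeq2 called none of these in either direction, nor was any at an unadjusted p under 0.05. Of the 11 without an adjusted p, 3 had a mean above the lowest tested mean. These were puf-5, with an RPKM of 1.12 in daf-2; mes-1 and 7.77 in mes-1, rme-2, with 0.9749 in daf-2; mes-1 and 6.60 in mes-1, and mex-5, with 1.37 in daf-2; mes-1 and 6.56 in mes-1. For puf-5, rme-2 and mex-5 the deposited log2 fold changes were -0.68, -0.56 and -0.38, much nearer to 0 than the RPKM gaps. The means of these genes and of pos-1 are too high to recover reads, so whether single libraries made the gaps was not tested. Over all genes, 37 with a mean at or above the lowest tested mean lack an adjusted p. The deposited columns do not say why. The part of germline RNA in the fall of the members was not tested.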

How the data were processed

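Per the labels' protocols, RNA of whole sterile adults was depleted of ribosomal RNA before library preparation, with a kit that keeps no strand information. The submitters' processing notes list TopHat2 and DESeq2 with no version. No source used here names the genome build, and positions are printed as the table has them. The deposited table has 5 value columns and none for a single sample. Per the file headers, the authors made with DESeq2 the signal column (mean normalized count over 6 samples), the log2 fold change column (daf-2; mes-1 over mes-1, limited to an absolute value of 5) and the p-value column, adjusted by Benjamini-Hochberg (limited to 1e-20). Per the file headers, the authors made the RPKM columns with Cuffdiff2, 1 value per genotype.

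A count test was planned but needs values per sample, so the authors' own DESeq2 calls at an adjusted p under 0.05 were used. Unadjusted p-values were bounded by inverting the Benjamini-Hochberg adjustment over 9820 genes, and the standard error was limited by the log2 fold change over the normal quantile of that bound, which assumes that the authors' p is that of a normal statistic. Reads per library were recovered for means up to 15. Where several combinations met a mean, the 1 whose genotype ratio lay within 0.5 (log2, pseudocount 0.1) of the RPKM ratio was taken. Library genotypes came from the RPKM columns. The recovery was tested on simulated reads. The total depth of each library is unknown.

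The lists matched the table by name or present symbol, with 1 of 149 entries unmatched. Named genes were all members, the 2 most changed called genes per direction of each list, the nearest genes by RPKM and genes near members; further genes were named after their values were seen. The recovery, its limits, the share of called genes with a mean under 15, the interval for 2 reads, the description of germline markers by RPKM and the 8-exon description were chosen after the data were seen. Members and lists were chosen with earlier results of these data known. Protein and promoter sequences were not analysed here. Exon numbers and residues are from the Ensembl annotation. Python 3.11.15, SciPy 1.17.1 and pandas 2.3.3 were used.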

Additional observations from a re-analysis of the deposited data

How the results depend on the processing

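The count of 6 dod genes called lower held with a minimum absolute log2 fold change of 1. At an adjusted p under 0.01 it was 5, without dod-17. An adjusted p under 0.1 and a bounded unadjusted p under 0.05 could not change the count, since all tested members were already called. Leaving out members that overlap another gene could not change it either, since there were none. The count of 2 higher genes was 0 at an adjusted p under 0.01 and 1, dod-3, with that minimum fold change. The median stayed between -1.93 and -1.47. The 31 log2 RPKM ratios of the members with an adjusted p reuse the same 2 RPKM values per gene with several pseudocounts. A pseudocount cannot change their direction, which in each gene was that of the deposited log2 fold change. Of the 31, 9 lay further from the deposited value than its standard error, all in dod-17, dod-21, dod-22 and dod-24. The size in these genes depends on the pseudocount. With no pseudocount, dod-21 and dod-24 also lay further than the standard error, dod-24 at -4.34 against a deposited -3.81. For dod-21 the ratio was -4.76 with no pseudocount and -0.96 with a pseudocount of 5. Leaving out each recovered library in turn, which was chosen after the data were seen, gave log2 ratios of -2.37 to -1.36 for dod-17 and -5.16 to -3.62 for dod-21, which rests on 2 reads in daf-2; mes-1. Without library D dod-21 had no read in daf-2; mes-1. The difference of dod-22 was -38.7 to -13.2 normalized counts. No paired analysis was possible because the deposited columns carry no replicate number and the recovered libraries cannot be matched to one. Other normalizations, a filter on low counts and fits that leave out a replicate were not run for want of values per sample. Depth limits dod-20 (3 reads) most.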

Other observations

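The dod gene outside the members, dod-18, had an RPKM of 6.09 in daf-2; mes-1 and 5.10 in mes-1 and was not called, with a log2 fold change of 0.30 in the authors' deposited table (adjusted p = 0.93, DESeq2). With it, 8 of the 9 dod genes with an adjusted p would be called.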
